A study of Erigeron canadensis with 32 samples.

Results

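The carotenoid cleavage genes of horseweed (*Erigeron canadensis*) described here are 5 of the 54498 predicted genes of the draft genome. They were taken by gene identifier and carry, as best *A. thaliana* hit, *NCED5* (HW_34273_g), *NCED3* (HW_373_g), *NCED4* (HW_13601_g and HW_33543_g) and *CCD1* (HW_21726_g). The choice used no measured value of a treatment, but it was made with earlier results of these data known. The names are those of the closest *A. thaliana* protein, and the horseweed enzymes themselves were not assayed in the data used here. By the BLAST E-values in the paper, HW_21726_g matches *CCD1* less strongly than HW_34273_g matches *NCED5* or HW_33543_g matches *NCED4*. Whether HW_21726_g acts as a CCD1 was not tested.

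Carotenoid cleavage dioxygenases cut the long chain of a carotenoid at a double bond. The 9-*cis*-epoxycarotenoid dioxygenases (NCED) act in the plastid and release xanthoxin, which is turned into abscisic acid (ABA) in the cytosol, and this cut is regarded as the step that limits ABA synthesis in leaves. In *A. thaliana*, *NCED3* is the main NCED gene of drought-stressed leaves and *NCED5* is a further ABA-forming member. *NCED4* was named for its similarity to them but is better known as *CCD4*, a plastid enzyme that breaks down carotenoids without making xanthoxin. CCD1 is a cytosolic enzyme that cleaves carotenoids and their breakdown products into volatile compounds such as ionones. CCD7 and CCD8, of the same family, start strigolactone synthesis.

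Leaf RNA came from a glyphosate-resistant biotype at the rosette stage, grown in a greenhouse. The treatments were water and 3 synthetic auxin herbicides, namely 2,4-D, dicamba and halauxifen-methyl, and a non-ionic surfactant was in every spray, that of the water controls included. The herbicides were applied at field rates that differ from each other, so a difference between herbicides and a difference in rate cannot be told apart. At 1 and 6 h after treatment (HAT) 4 plants per treatment gave a single leaf each, which made 32 libraries in 8 groups. No plant was sampled at more than 1 time, and the comparisons of the 3 herbicides with water share the water libraries of their time.

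The deposited values are read counts per gene, with totals of 12588842 to 29111958 per library. They are given below as counts or as CPM, the usual scaling of a count to its library total, after adjusting the totals by edgeR's TMM factors over all 32 libraries. A count of 0 allows up to 3 counts, which is 0.113 to 0.285 CPM depending on the library, and such limits cover counting error only. Within groups, log2 CPM of the 17367 genes kept by a low-count filter over all libraries correlated with r = 0.827 to 0.958 over 48 pairs of libraries. For 21 of the 32 libraries the highest median correlation was with their own group. Dicamba 1 HAT replicate 4 had the lowest median correlation with its group (0.871), and where a result rests on it this is stated. Water 6 HAT replicate 1 was nearly as low (0.872), against 0.946 to 0.949 for the other water libraries of 6 HAT. It is part of every comparison with water at 6 HAT. Leaf mesophyll markers were abundant, while pollen and root markers summed to at most 1.37 and 1.77 CPM in any library.

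All 5 gene models lie on separate contigs of the draft assembly that the authors annotated with GeneMark, and no other gene model overlaps them. The annotation lists coding exons only, so no untranslated region is given. *NCED5* covers 1743 coding bases in 1 exon, on the plus strand of contig JSWR01000306.1 from 20307 to 22049, and encodes 580 amino acids. *NCED3* is also a gene of 1 exon, with 1794 coding bases and 597 amino acids, from 2692 to 4485 on the plus strand of JSWR01008466.1, where it is the only gene model.

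The *NCED4* genes have introns. HW_13601_g has 4 exons and 647 amino acids and lies on the minus strand of JSWR01014094.1 from 8499 to 12356. HW_33543_g has 6 exons and 711 amino acids and lies on the minus strand of JSWR01009596.1 from 3874 to 8735. *CCD1* has 12 exons from 27387 to 32952 on the plus strand of JSWR01004952.1, its model encodes 573 amino acids, and it ends without a stop codon. How reads shared by similar family members were counted is not given in the sources used here, so a split of reads between close copies was not tested.

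Scaled to coding length, the members spanned a wide range in the water controls. At 1 HAT the mean level was 82.8 CPM per kb for *CCD1*, 39.8 for *NCED4* HW_13601_g, 5.83 for *NCED3*, 0.293 for *NCED5* and 0.0820 for *NCED4* HW_33543_g. At 6 HAT the order of the first pair was turned, with 388 CPM per kb for HW_13601_g and 14.2 for *CCD1*, while *NCED3* stood at 13.4, *NCED5* at 0.424 and HW_33543_g at 0.0645. In the water controls *NCED3* was therefore the more abundant of the ABA-forming genes at each time, and *NCED5* was close to the limit of detection.

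*NCED5* was the member that rose within 1 h. At 1 HAT it had 12, 3, 5 and 9 counts in the water libraries. After 2,4-D it had 292, 502, 366 and 246 counts, and after dicamba 357, 254, 262 and 380. The treated libraries thus lay far above every control, and the groups did not overlap.

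The mean level of *NCED5* went from 0.511 ± 0.194 CPM in water to 18.9 ± 4.59 after 2,4-D and 16.5 ± 3.40 after dicamba (SD, n = 4 libraries in each group). Its log2 fold change was 5.18 after 2,4-D (standard error 0.39, 36.3-fold, Benjamini-Hochberg adjusted p = 8.95e-05 in the quasi-likelihood test of edgeR). After dicamba the log2 fold change was 4.98 (standard error 0.43, 31.5-fold, edgeR adjusted p = 9.45e-05). Leaving out any 1 of the 8 libraries kept *NCED5* past the threshold of 0.05 in these comparisons, with adjusted p of at most 0.000969 and 0.00100. Of the 4 members tested, *NCED5* was the 1 called in each comparison. With water counts of 3 to 12, it passed the low-count filter against water at 1 HAT through the herbicide libraries. The size of its fold changes therefore rests on few water counts. Among all tested genes 1.82% were called after 2,4-D and 2.42% after dicamba in either direction, and 0.898% and 1.23% were called higher.

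After halauxifen-methyl at 1 HAT *NCED5* had 52, 66, 106 and 391 counts. Every library was above every water library, but replicate 4, at 18.3 CPM, stood well above the other 3, at 3.44 to 6.01 CPM. The mean was 7.99 ± 6.95 CPM (SD, n = 4) and the log2 fold change 3.95 (standard error 0.69, 95% confidence interval 2.41 to 5.48), with an edgeR adjusted p of 0.0798 that missed the threshold. It passed in 4 of 6 alternative analyses, whose adjusted p ran from 7.53e-06 (DESeq2) to 0.0897, and in none of the 8 fits with a library left out (adjusted p 0.0776 to 0.417). Without replicate 4 of halauxifen-methyl the log2 fold change was 3.14. DESeq2 called 1 member in this comparison, and 81 genes over the whole table. By edgeR 1 of the 4 members tested had an unadjusted p under 0.05, for which no share of all genes is given. After adjustment edgeR called 0 of the 4 members and 0.176% of all tested genes, all of them higher. This background of 25 genes is itself unstable, with 14, 2 and 1 genes called without water 1 HAT replicates 1, 2 and 3, and 5 and 4 without halauxifen-methyl replicates 1 and 3. In a two-sided exact permutation test, *NCED5* gave p = 0.0286 after each herbicide, the smallest p that 4 libraries against 4 allow.

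At 6 HAT *NCED5* was still higher than in water after 2,4-D. The water libraries had 0, 13, 19 and 19 counts, or 0.739 ± 0.531 CPM (SD, n = 4). The library at 0 was replicate 1, where up to 0.167 CPM remains possible. At this time too, *NCED5* passed the low-count filter against water only with the herbicide libraries. After 2,4-D the counts were 262, 261, 151 and 398, a mean of 13.96 ± 5.57 CPM (SD, n = 4). The log2 fold change was 4.25 (standard error 0.76, 19.0-fold, edgeR adjusted p = 0.00196), and *NCED5* was called in all 8 fits with a library left out. Over all tested genes 2817 were called in this comparison, and 3829 without water 6 HAT replicate 1.

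Dicamba and halauxifen-methyl gave lower levels at 6 HAT. The counts of *NCED5* were 132, 70, 175 and 203 after dicamba (7.10 ± 2.91 CPM, SD, n = 4). They were 150, 127, 60 and 112 after halauxifen-methyl (5.26 ± 1.01 CPM, SD, n = 4). All of these libraries lay above all water libraries (exact permutation test, two-sided, p = 0.0286, the smallest possible).

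The log2 fold change of *NCED5* at 6 HAT was 3.28 after dicamba (standard error 0.94, 95% confidence interval 1.21 to 5.35, edgeR adjusted p = 0.0521). After halauxifen-methyl it was 2.83 (standard error 0.91, 95% confidence interval 0.81 to 4.85, edgeR adjusted p = 0.0654). Neither passed the threshold, and both depended on the water library at 0. Without water 6 HAT replicate 1 the log2 fold changes were smaller, at 2.86 and 2.42, but the spread in water was also smaller and the edgeR adjusted p was 0.00732 and 0.00369. Over the other alternatives the adjusted p ran from 0.000264 to 0.113 after dicamba, with 4 of 6 past the threshold, and from 0.000982 to 0.165 after halauxifen-methyl, with 3 of 6 past it.

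**Figure D1:**
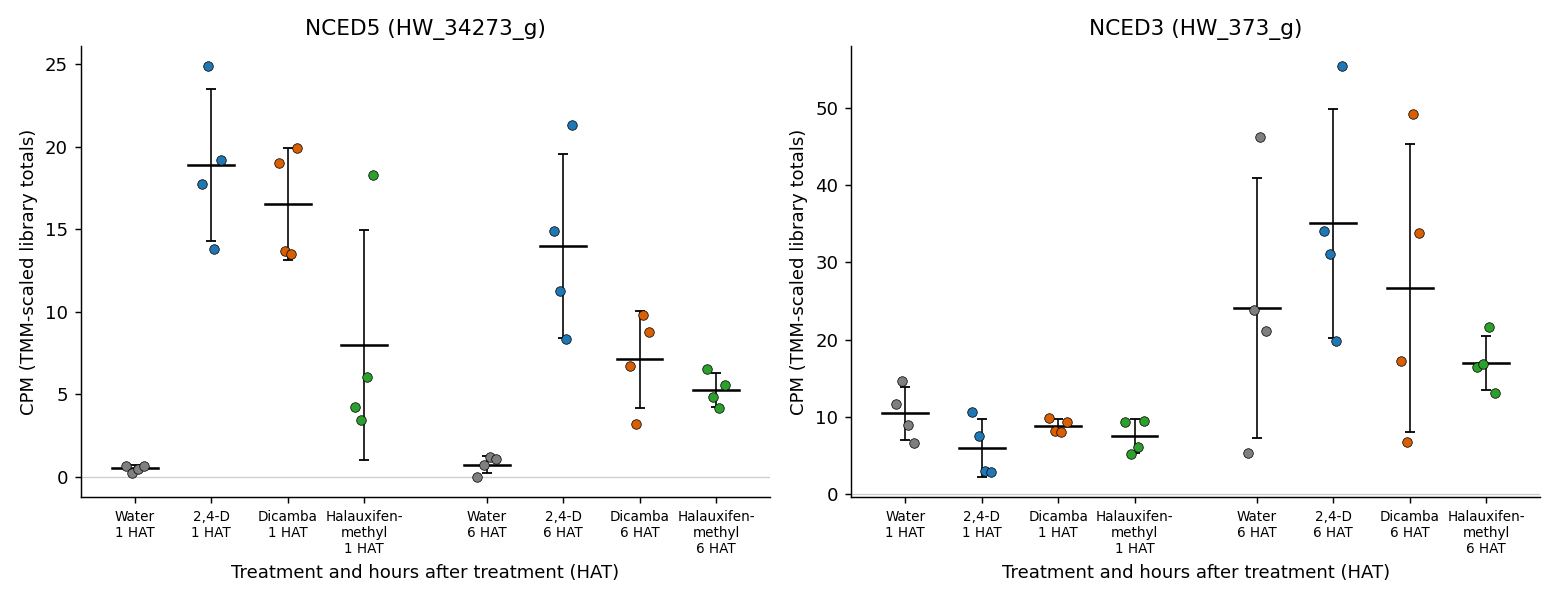
Level of *NCED5* (left) and *NCED3* (right) in CPM of TMM-scaled library totals, by treatment and time; points are the 4 libraries of a group, horizontal lines the mean and bars the SD. *NCED5* lay between 0 and 1.19 CPM in the 8 water libraries and above 3 CPM in all 24 herbicide libraries, while the *NCED3* libraries of water and herbicides overlapped at both times.

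In water *NCED5* did not pass the test between the times (log2 fold change of 6 against 1 HAT 0.48, 95% confidence interval -2.39 to 3.35, edgeR adjusted p = 0.878). The group means of *NCED5* were ordered 2,4-D 1 HAT, dicamba 1 HAT, 2,4-D 6 HAT, halauxifen-methyl 1 HAT, dicamba 6 HAT, halauxifen-methyl 6 HAT, water 6 HAT and water 1 HAT. Neighbours in this order overlapped in their libraries, except for halauxifen-methyl 6 HAT and water 6 HAT. The interaction of herbicide and time, the log2 difference from water at 6 HAT minus that at 1 HAT, was -0.92 with 2,4-D (standard error 0.84), -1.71 with dicamba (standard error 0.96) and -1.12 with halauxifen-methyl (standard error 1.11). None passed the test (edgeR adjusted p = 0.612, 0.442 and 0.726).

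*NCED3*, the main drought-induced NCED gene of *A. thaliana* leaves, was not called in any comparison with water. At 1 HAT its level was 11.7, 14.6, 8.93 and 6.58 CPM in the 4 water libraries. It was 10.6, 7.57, 3.01 and 2.89 CPM with 2,4-D, 9.86, 8.13, 8.10 and 9.37 with dicamba, and 9.37, 5.21, 6.13 and 9.45 with halauxifen-methyl. The treated libraries overlapped the controls in all 3 cases.

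At 1 HAT the log2 fold changes of *NCED3* were -0.78 with 2,4-D, -0.23 with dicamba and -0.45 with halauxifen-methyl (edgeR adjusted p = 0.607, 0.796 and 1.00). Their 95% confidence intervals were -1.81 to 0.26, -0.94 to 0.48 and -1.21 to 0.30. A rise of the size seen for *NCED5* at this time lay outside all 3 intervals.

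At 6 HAT *NCED3* varied strongly between plants of 1 group. The water libraries had 5.28, 23.8, 46.3 and 21.1 CPM, and replicate 1 was again the lowest. 2,4-D gave 34.0, 31.0, 19.9 and 55.4 CPM and dicamba 17.2, 6.78, 49.1 and 33.8 CPM. Halauxifen-methyl gave the narrowest range, with 16.5, 16.9, 21.6 and 13.1 CPM.

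The log2 fold changes of *NCED3* at 6 HAT were 0.55 with 2,4-D, 0.16 with dicamba and -0.51 with halauxifen-methyl (standard errors 0.50, 0.62 and 0.49, edgeR adjusted p = 0.542, 0.932 and 0.592). Their 95% confidence intervals of -0.55 to 1.66, -1.21 to 1.52 and -1.59 to 0.58 do not exclude a change of 2-fold in some direction. Between the water groups *NCED3* was higher at 6 HAT by 1.17 on the log2 scale (standard error 0.51, edgeR adjusted p = 0.176). Without water 6 HAT replicate 1 this difference was 1.51 and passed the threshold (edgeR adjusted p = 0.0160).

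The share of *NCED5* in the summed level of *NCED5* and *NCED3*, both in CPM per kb of coding length, shows how the make-up of this pair shifted. In water the median share was 5.40% at 1 HAT (range 1.73% to 9.15%) and 2.79% at 6 HAT (range 0% to 4.87%). At 1 HAT 2,4-D gave 79.8% (63.2% to 87.3%), dicamba 65.0% (63.2% to 68.6%) and halauxifen-methyl 45.4% (31.6% to 66.6%). The median shares at 6 HAT were 29.3%, 24.8% and 25.9%, with all 12 treated libraries between 16.5% and 32.6%. All herbicide libraries thus lay above all water libraries at each time. The median share was lower at 6 than at 1 HAT in every treatment, and the mean level of *NCED3* was higher. The mean level of *NCED5* was lower at 6 than at 1 HAT after each herbicide and higher in water.

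The sum of the pair itself at 1 HAT was 6.12 ± 1.87 CPM per kb in the water controls, 14.2 ± 3.90 with 2,4-D, 14.4 ± 2.43 with dicamba and 8.78 ± 4.79 with halauxifen-methyl (SD, n = 4). At 6 HAT it was 13.9 ± 9.67, 27.6 ± 11.4, 19.0 ± 11.98 and 12.5 ± 1.63 CPM per kb in the same order. At 6 HAT the sums of the treated libraries, 5.61 to 43.1 CPM per kb, therefore overlapped those of water, 2.94 to 26.5 CPM per kb. These sums are descriptions and were not tested.

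**Figure D2:**
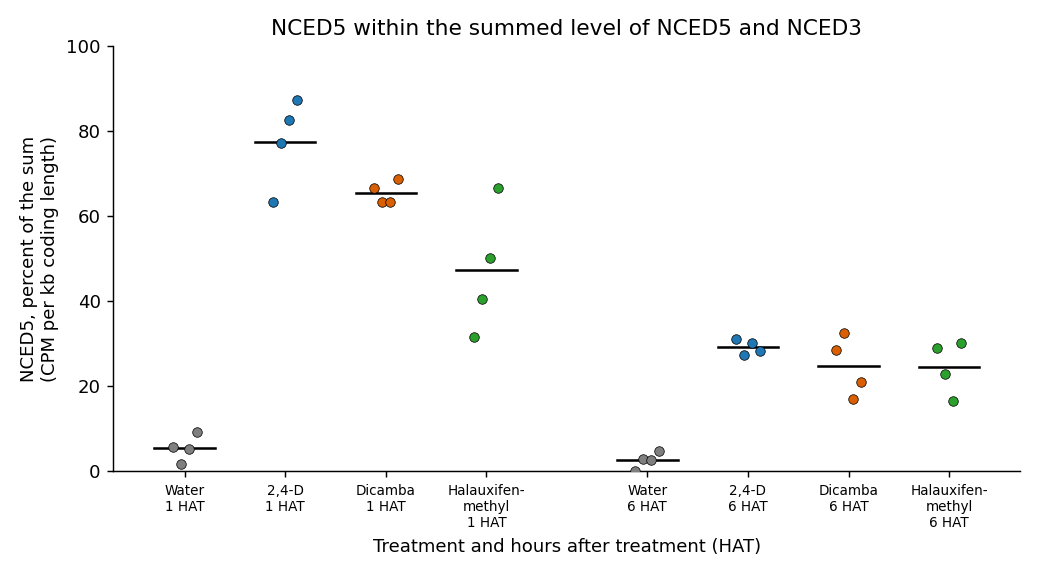
Share of *NCED5*, in percent, in the summed level of *NCED5* and *NCED3* (CPM per kb of coding length) by treatment and time; points are the 4 libraries of a group and horizontal lines their mean. The share stayed under 10% in all 8 water libraries, reached 31.6% to 87.3% in the herbicide libraries at 1 HAT and was 16.5% to 32.6% at 6 HAT.

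*NCED4* HW_13601_g, of the CCD4 type, changed with time in water and was not called against water after any herbicide. In water it had 29.5, 107, 95.9 and 76.8 CPM at 1 HAT and 642, 930, 813 and 632 CPM at 6 HAT. The groups were far apart, and the log2 fold change of 6 against 1 HAT was 3.26 (standard error 0.35, 9.57-fold, edgeR adjusted p = 0.000158, called in all 8 fits with a library left out). Of the 4 members tested between the water groups, this gene was called higher and *CCD1* lower, while 13.9% of all tested genes were called, 6.44% higher and 7.42% lower.

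At 1 HAT HW_13601_g had 83.3, 47.2, 23.2 and 65.9 CPM after 2,4-D and 86.0, 45.8, 123 and 233 CPM after halauxifen-methyl. After dicamba it had 131, 111, 65.9 and 782 CPM, the last being replicate 4, which was in the range of the libraries of 6 HAT. The log2 fold changes were -0.47 with 2,4-D, 1.83 with dicamba and 0.67 with halauxifen-methyl (edgeR adjusted p = 0.761, 0.247 and 1.00). Without dicamba 1 HAT replicate 4 the dicamba value was 0.41 (edgeR adjusted p = 0.766). With all libraries and no low-count filter it was called (edgeR adjusted p = 0.0377), and the 7 alternatives ran from this value to 0.441.

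At 6 HAT the HW_13601_g levels were 581, 582, 756 and 822 CPM after 2,4-D. They were 428, 637, 1493 and 617 CPM after dicamba and 508, 515, 657 and 403 CPM after halauxifen-methyl. All 3 groups overlapped water. Against water the log2 differences were -0.13, 0.08 and -0.54 (standard errors 0.17, 0.33 and 0.20, edgeR adjusted p = 0.694, 0.938 and 0.0969). After halauxifen-methyl DESeq2 called the gene lower (adjusted p = 0.0421), the other 6 alternatives did not, and their adjusted p reached 0.645.

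*NCED4* HW_33543_g was hardly expressed. At 1 HAT it had 8, 3, 0 and 0 counts in water, 0, 0, 0 and 9 with 2,4-D, 0, 2, 1 and 16 with dicamba, and 5, 33, 6 and 0 with halauxifen-methyl. At 6 HAT it had 0, 6, 0 and 4 counts in water, 4, 0, 0 and 0 with 2,4-D, 11, 0, 51 and 20 with dicamba, and 71, 54, 11 and 11 with halauxifen-methyl. Halauxifen-methyl at 6 HAT was the only group with counts in every library.

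HW_33543_g passed the low-count filter in 1 of the 6 comparisons with water, that of halauxifen-methyl at 6 HAT, and it passed through the counts of the treated group. There the means were 1.61 ± 1.19 CPM after halauxifen-methyl and 0.138 ± 0.165 CPM in water (SD, n = 4). The log2 fold change was 3.48 (standard error 1.28, 95% confidence interval 0.63 to 6.33, edgeR adjusted p = 0.105). The libraries did not overlap (exact permutation test, two-sided, p = 0.0286, the smallest possible). Of 6 alternatives, DESeq2 and edgeR's exact test called it and the other 4 did not, over a range of adjusted p from 0.0220 to 0.271. In the 5 comparisons that left it out, the exact permutation p was 0.200 to 1.00.

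*CCD1* had the most uniform response at 6 HAT. The water libraries had 22.0, 32.9, 19.99 and 22.7 CPM. After 2,4-D the level was 379, 323, 386 and 459 CPM. After dicamba it was 528, 612, 368 and 476 CPM, and after halauxifen-methyl 527, 720, 650 and 519 CPM. No treated library came near a control.

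The means of *CCD1* at 6 HAT were 24.4 ± 5.79 CPM for water, 387 ± 55.7 for 2,4-D, 495.9 ± 102 for dicamba and 604 ± 97.9 for halauxifen-methyl (SD, n = 4). The log2 fold changes were 3.99 (standard error 0.19, 15.9-fold, edgeR adjusted p = 1.75e-07), 4.36 (standard error 0.25, 20.6-fold, edgeR adjusted p = 5.06e-06) and 4.62 (standard error 0.22, 24.6-fold, edgeR adjusted p = 3.76e-06). *CCD1* was called in all 8 fits with a library left out for each herbicide, and in all 7 alternatives. In these comparisons 2 of 4, 1 of 4 and 1 of 5 members tested were called, all higher, against 10.3%, 5.64% and 8.55% of all tested genes called higher and 19.7%, 9.60% and 14.7% called in either direction.

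Sums of mesophyll and guard cell marker genes differed from water at 6 HAT, while at 1 HAT they overlapped water after every herbicide. The paper reports several of these mesophyll genes among the photosynthesis genes lowered by every herbicide. Their sum therefore cannot tell fewer mesophyll cells from lower expression of these genes. At 6 HAT 13 mesophyll marker genes, such as those of the small subunit of Rubisco and light-harvesting proteins, 2 of them at 0 counts everywhere, summed to 56209 to 96756 CPM in water. Treated libraries had sums of 30340 to 45038 CPM with 2,4-D, 26271 to 33889 with dicamba and 16079 to 38075 with halauxifen-methyl, so that no treated library reached the water range. Of 7 guard cell marker genes, 3 had 0 counts everywhere, and the sum was 9.66 to 16.1 CPM for water, 96.6 to 126 for 2,4-D, 84.2 to 123 for dicamba and 51.0 to 90.4 for halauxifen-methyl.

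The guard cell sum came mostly from the 1 gene named *KAT1*, a potassium channel, while the genes named *FMA* and *MYB60*, which define guard cells, had at most 1 count in any library. The epidermis sum came almost wholly from 1 gene named *KCS10* (HW_45215_g). It overlapped water at 6 HAT, with 38.5 to 55.8 CPM for water, 28.9 to 42.5 for 2,4-D, 31.5 to 47.5 for dicamba and 33.2 to 50.2 for halauxifen-methyl. Phloem companion cell markers, 4 genes, summed to at most 2.00 CPM in any library. The part of these markers in the *NCED5* and *CCD1* results was not tested, and fewer cells of a type and less RNA per cell cannot be told apart in whole leaves.

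At 1 HAT *CCD1* did not rise. The water libraries had 98.6, 189.6, 148 and 134 CPM (143 ± 37.7, SD, n = 4). Dicamba gave 104, 87.9, 108 and 301 CPM and halauxifen-methyl 140.4, 129, 173 and 144 CPM, and both overlapped water. The log2 fold changes were 0.09 (95% confidence interval -0.74 to 0.92) and 0.06 (95% confidence interval -0.41 to 0.53), with edgeR adjusted p of 0.942 and 1.00. Without dicamba 1 HAT replicate 4, the library at 301 CPM, the dicamba value was -0.51 (edgeR adjusted p = 0.392).

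After 2,4-D at 1 HAT the *CCD1* libraries had 72.7, 54.6, 26.6 and 92.9 CPM, and all of them lay below all water libraries. The mean was 61.7 ± 28.2 CPM (SD, n = 4) and the log2 fold change -1.18 (standard error 0.35, 95% confidence interval -1.95 to -0.41). The edgeR adjusted p was 0.157, while 3 of 7 alternatives passed the threshold, over a range of 0.0170 to 0.214. The sum of 2 epidermis marker genes, both named *KCS10*, was also lower in these libraries, at 59.3 to 73.1 CPM against 83.2 to 140.9 CPM in water. It came almost wholly from HW_45215_g, as HW_25586_g had at most 12 counts in any library. Its part in the *CCD1* values was not tested.

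In water *CCD1* fell by 2.57 on the log2 scale from 1 to 6 HAT (standard error 0.23, 5.95-fold lower, edgeR adjusted p = 5.28e-05, called in all 8 fits with a library left out). Over the same time the mean level went from 61.7 to 387 CPM with 2,4-D, from 150.4 to 495.9 with dicamba and from 147 to 604 with halauxifen-methyl. The dicamba mean of 1 HAT includes replicate 4 at 301 CPM, while the other libraries of that group had 87.9 to 108 CPM. The difference from water was thus larger at 6 than at 1 HAT, and this interaction had a log2 size of 5.19 after 2,4-D (standard error 0.43, edgeR adjusted p = 1.29e-06), 4.29 after dicamba (standard error 0.48, edgeR adjusted p = 2.08e-05) and 4.56 after halauxifen-methyl (standard error 0.30, edgeR adjusted p = 3.51e-07). Part of each value is the fall in water. *CCD1* was the 1 member called in each interaction, of 4, 5 and 5 tested, against 9.50%, 5.17% and 5.49% of all tested genes, and 5.71%, 3.34% and 3.41% with a positive interaction. It was called in all 16 fits with a library left out.

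**Figure D3:**
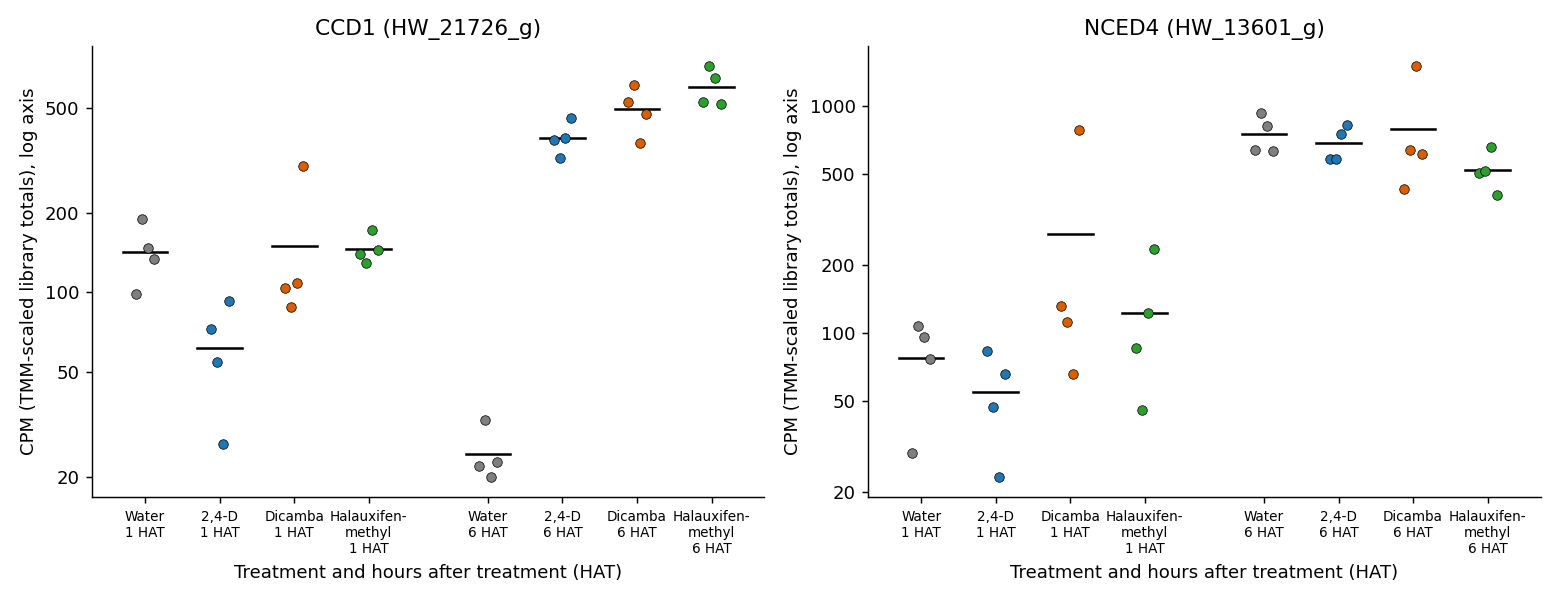
Level of *CCD1* (left) and *NCED4* HW_13601_g (right) in CPM of TMM-scaled library totals on a log axis, by treatment and time; points are the 4 libraries of a group and horizontal lines their mean. *CCD1* was 19.99 to 32.9 CPM in water at 6 HAT and 323 to 720 CPM after the herbicides, whereas *NCED4* was 403 to 1493 CPM in all 16 libraries of 6 HAT; the high point of dicamba at 1 HAT is replicate 4 in both panels.

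The order of the *CCD1* group means was halauxifen-methyl, dicamba and 2,4-D at 6 HAT, then dicamba, halauxifen-methyl and water at 1 HAT, then 2,4-D at 1 HAT and water at 6 HAT. Dicamba at 1 HAT holds its place through replicate 4, at 301 CPM. The other dicamba libraries of 1 HAT, at 87.9 to 108 CPM, lay below the means of halauxifen-methyl and water at 1 HAT, 147 and 143 CPM. Libraries of neighbours did not overlap between 2,4-D 6 HAT and dicamba 1 HAT or between water 1 HAT and 2,4-D 1 HAT, and they overlapped elsewhere. For *NCED3* and both *NCED4* genes all neighbours in the order of means overlapped.

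**Figure D4:**
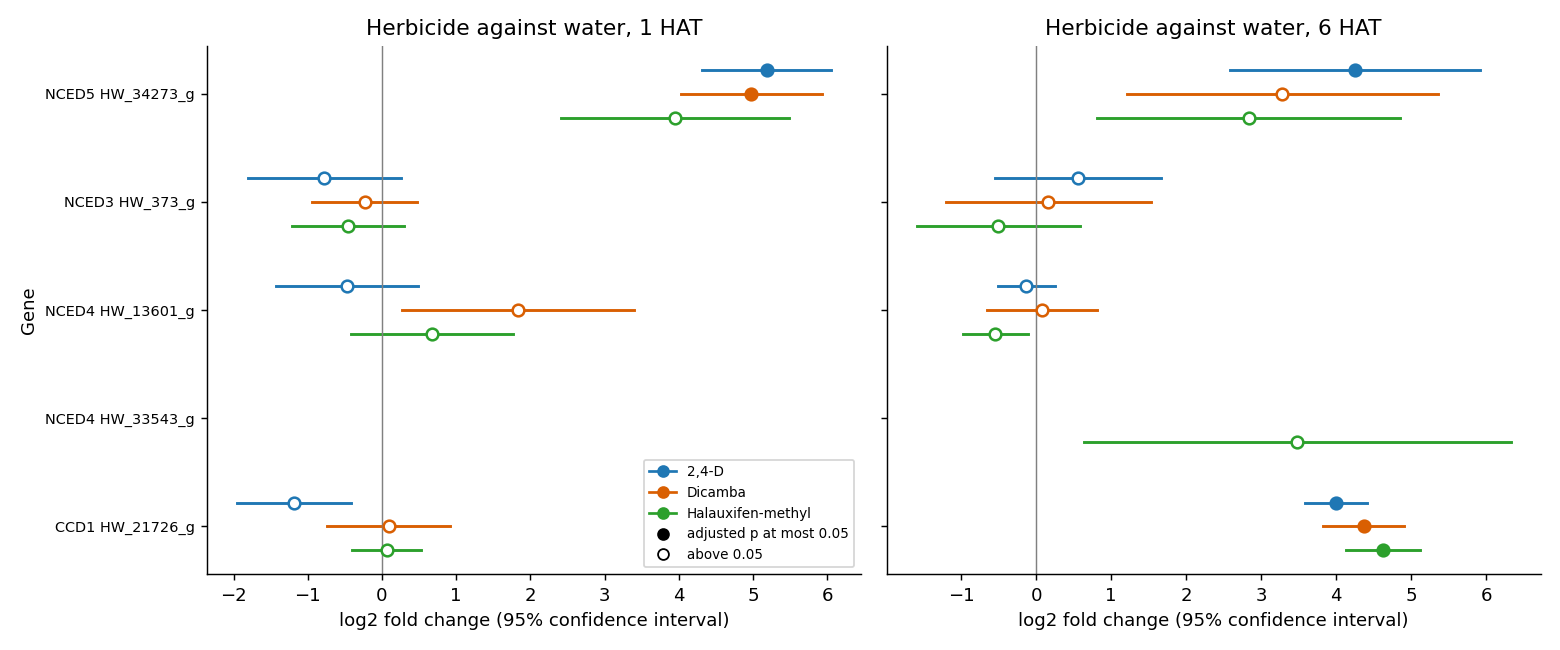
Log2 fold change of each member against water at 1 HAT (left) and 6 HAT (right) with 95% confidence intervals from edgeR's quasi-likelihood fits; filled points have an adjusted p of at most 0.05, open points do not, and a missing point was below the low-count filter. *NCED5* was above 0 at both times, with 5.18 and 4.98 called at 1 HAT, whereas *CCD1* was between 3.99 and 4.62 at 6 HAT and between -1.18 and 0.09 at 1 HAT.

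The herbicides were also compared with each other, 3 pairs at each time, without the water libraries and at their differing rates. At 1 HAT none of the 4 members tested was called in any pair (edgeR adjusted p 0.170 to 0.997), where 0.208% of all tested genes were called for 2,4-D against dicamba, 0.475% for 2,4-D against halauxifen-methyl and 0.355% for dicamba against halauxifen-methyl. Over all alternatives the number of genes called in these pairs ran from 5 to 789, 41 to 275 and 31 to 169. The shares given are of edgeR's adjusted calls and are no background for unadjusted p or for DESeq2. In these pairs 2, 3 and 0 members had an unadjusted p under 0.05, and DESeq2 called 1, 1 and 0. The 2 members for 2,4-D against dicamba were *NCED4* HW_13601_g and *CCD1*, with log2 differences of -2.31 and -1.27, and without dicamba 1 HAT replicate 4 they were -0.89 and -0.68 (edgeR adjusted p = 0.347 and 0.411). *NCED5* was 1.25 higher on the log2 scale after 2,4-D than after halauxifen-methyl (95% confidence interval 0.15 to 2.36, edgeR adjusted p = 0.537). Without halauxifen-methyl 1 HAT replicate 4, its library with 391 counts, this difference was 2.06 and passed the threshold (edgeR adjusted p = 0.0226). *CCD1* was 1.25 lower after 2,4-D than after halauxifen-methyl, with no overlap of the libraries (95% confidence interval -1.97 to -0.52, edgeR adjusted p = 0.232, exact permutation p = 0.0286). Between 2,4-D and dicamba the interval of the *NCED5* difference was -0.38 to 0.79.

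At 6 HAT edgeR called *NCED5* and *NCED3* higher and *CCD1* lower after 2,4-D than after halauxifen-methyl, where 8.04% of all tested genes were called, 2.96% higher and 5.07% lower. *NCED5* was 1.39 higher after 2,4-D on the log2 scale (standard error 0.30, 2.63-fold, edgeR adjusted p = 0.0182). *NCED3* was 1.04 higher (standard error 0.28, 2.06-fold, edgeR adjusted p = 0.0472). *CCD1* was lower by 0.65 (standard error 0.15, 1.56-fold, edgeR adjusted p = 0.0274).

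*NCED4* HW_33543_g had an edgeR adjusted p of 0.0412 in this pair, with lower values after 2,4-D. It had 4 counts in all of the 2,4-D libraries together and passed the low-count filter only through the halauxifen-methyl libraries, so its call is no support for a difference of the members. The pair was close to the threshold throughout. With 1 library left out, *NCED5* was called in 6 of 8 fits, *CCD1* in 3, HW_33543_g in 2 and *NCED3* in 1. The *NCED5* call was lost without 2,4-D 6 HAT replicate 1 or replicate 4, with log2 differences of 1.36 and 1.12. The adjusted p over these fits reached 0.0551 for *NCED5*, 0.112 for *CCD1*, 0.136 for HW_33543_g and 0.109 for *NCED3*. A fit of all 32 libraries together called none of them (adjusted p 0.211 to 0.392), and the other alternatives for *NCED5* gave adjusted p from 0.000378.

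For dicamba at 6 HAT neither pair called a member in edgeR or DESeq2, and 1 and 0 members had an unadjusted p under 0.05 against 2,4-D and halauxifen-methyl. *NCED5* was 0.96 higher after 2,4-D than after dicamba on the log2 scale (95% confidence interval 0.12 to 1.80, edgeR adjusted p = 0.514). It was 0.46 higher after dicamba than after halauxifen-methyl (95% confidence interval -0.39 to 1.31, edgeR adjusted p = 0.817). The *CCD1* differences were -0.38 and -0.25, with intervals of -0.78 to 0.02 and -0.70 to 0.20. Over all tested genes 0.519% were called between 2,4-D and dicamba and 0.489% between dicamba and halauxifen-methyl. These shares are of edgeR's adjusted calls and are no background for the unadjusted p.

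The count table holds 20 more genes with a best hit in the NCED and CCD family. Of these, 8 had 0 counts in all 32 libraries, 16 had at most 10 counts in every library and 1 was kept by the low-count filter when applied to all libraries. All genes named *NCED6*, *NCED9*, *CCD7* or *CCD8* were among those that did not pass, so in these leaves the family was represented by the 5 members and 1 more gene. That gene, HW_29109_g, is also named *CCD1* and encodes 514 amino acids.

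HW_29109_g did not follow HW_21726_g at 6 HAT. Its level was 346 ± 57.7 CPM for water, 329 ± 26.5 for 2,4-D, 362 ± 112 for dicamba and 204 ± 50.5 for halauxifen-methyl (SD, n = 4). It fell by 0.77 on the log2 scale after halauxifen-methyl (standard error 0.21, edgeR adjusted p = 0.0320) and was not called after 2,4-D or dicamba (log2 fold changes -0.06 and 0.08). A further gene named *CCD1*, HW_21724_g, lies on the same contig as HW_21726_g and had 10 counts, all in 1 library.

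The other steps of the pathway were read from lists chosen by best *A. thaliana* hit, with earlier results of these data known. The list of carotenoid and xanthophyll synthesis covers it as a whole, not only the steps that lead to NCED. Calls in it, *NPQ1* and *LUT1* included, therefore do not measure the supply of NCED substrate. It holds 26 genes, of which 10 were tested. At 1 HAT edgeR called 0 of them after any herbicide, where 1.82%, 2.42% and 0.176% of all tested genes were called. At 6 HAT 2 were lower with 2,4-D, 0 with dicamba and 4 with halauxifen-methyl, and 0 were higher. Over all tested genes 9.41%, 3.96% and 6.13% were called lower. Their median log2 fold changes at 6 HAT were -0.29, -0.24 and -0.65, against 0.02, 0.06 and 0.05 over all tested genes.

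After halauxifen-methyl *NPQ1* (HW_27100_g, violaxanthin de-epoxidase) fell by 0.94 on the log2 scale, *BETA-OHASE 1* (HW_39384_g, a carotene hydroxylase) by 0.82 and *LUT1* (HW_49309_g, a cytochrome P450 carotene hydroxylase) by 0.76 (edgeR adjusted p = 0.0200, 0.0270 and 0.0274). After 2,4-D *NPQ1* fell by 0.66 and *LUT1* by 0.61 (edgeR adjusted p = 0.0123 and 0.00582).

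After NCED, xanthoxin is turned into ABA by ABA2 and the aldehyde oxidase AAO3 with its cofactor enzyme ABA3. Of 9 listed genes 6 were tested at 6 HAT, 2 were higher and 2 lower with 2,4-D, 1 higher and 1 lower with dicamba, and 1 lower with halauxifen-methyl. Of all tested genes 19.7%, 9.60% and 14.7% were called in either direction, so 1 of 6 with halauxifen-methyl is close to the background. Genes named *ABA2* moved in opposite directions. After 2,4-D at 6 HAT HW_7772_g fell by 2.36 and HW_26707_g by 1.92 on the log2 scale, and HW_5686_g rose by 1.14 (edgeR adjusted p = 1.70e-06, 0.00130 and 0.00102). HW_26707_g also fell by 1.70 with dicamba and by 1.33 with halauxifen-methyl (edgeR adjusted p = 0.0209 and 0.0223). HW_7772_g was the 1 gene of this step called at 1 HAT, where it fell by 1.54 after dicamba (edgeR adjusted p = 0.00546).

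ABA breakdown by CYP707A enzymes was represented by 12 listed genes, of which 3 or 4 were tested. The 1 call was *CYP707A4* (HW_29043_g), which fell by 1.87 after halauxifen-methyl at 6 HAT (standard error 0.40, edgeR adjusted p = 0.0113). It was 1 of 4 genes tested there, where 6.13% of all tested genes were called lower. The median log2 fold change over the tested genes of this list at 6 HAT was 0.16 with 2,4-D, 0.34 with dicamba and 0.65 with halauxifen-methyl. In the cleavage and strigolactone list without the members, 2, 3 and 2 genes were tested at 6 HAT after 2,4-D, dicamba and halauxifen-methyl. Of these 1, 0 and 2 were called lower, against 9.41%, 3.96% and 6.13% of all tested genes. *CYP711A1* (HW_41334_g), a later strigolactone enzyme, fell at 6 HAT by 1.18 after 2,4-D and by 1.25 after halauxifen-methyl (edgeR adjusted p = 0.0129 and 0.0134).

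Of 50 listed ABA response genes, 24 or 25 were tested, and those called were lower at 1 HAT and mostly higher at 6 HAT. At 1 HAT 0 were higher and 3 were lower with 2,4-D, 2 with dicamba and 0 with halauxifen-methyl, where 0.919%, 1.19% and 0% of all tested genes were called lower. At 6 HAT 11, 8 and 6 were higher and 1 was lower in each case, where 10.3%, 5.64% and 8.55% of all tested genes were called higher. The median log2 fold changes were 0.60, 0.55 and 0.46 at 6 HAT, against 0.02, 0.06 and 0.05 over all tested genes.

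*RD26* (HW_34355_g), an ABA- and drought-responsive NAC factor, rose at 6 HAT by 5.21 with 2,4-D, 4.20 with dicamba and 4.18 with halauxifen-methyl on the log2 scale (edgeR adjusted p = 1.60e-07, 1.14e-05 and 1.85e-05). At 1 HAT it fell by 1.89 after dicamba (edgeR adjusted p = 0.0442). Another *RD26* gene (HW_1734_g) rose at 6 HAT by 2.90, 2.25 and 2.10. *HAI2* (HW_28574_g), an ABA-induced phosphatase, rose by 3.92 after 2,4-D (edgeR adjusted p = 0.00376) and was not called after dicamba or halauxifen-methyl (log2 fold changes 2.99 and 1.55). *NCED5* was thus called higher with 2,4-D and dicamba at 1 HAT, when no listed ABA response gene was called higher.

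Over the 32 libraries the members did not share 1 pattern. Pearson's r of log2 CPM was 0.04 between *NCED5* and *NCED3*, 0.72 between *NCED3* and *NCED4* HW_13601_g and 0.34 between *NCED5* and *CCD1*. These values describe libraries that fall into 8 treatment groups and share their depth and scaling.

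Among 17366 other genes, those most like *NCED5* were *MAKR6* (HW_3793_g, r = 0.86), *ELM1* (HW_53381_g, r = 0.85) and AT1G60690 (HW_33359_g, r = 0.85). Most like *CCD1* were AT2G27830 (HW_9019_g), *GLYI7* (HW_37130_g) and *UGT85A1* (HW_45513_g), with r of 0.92, 0.92 and 0.91. For *NCED4* HW_13601_g they were *ACD32.1* (HW_4843_g), *PIFI* (HW_26811_g) and *SNRK2.2* (HW_41184_g), with r of 0.97, 0.96 and 0.95.

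*NCED3* was most like *VAB3* (HW_34950_g, r = 0.84), AT4G38260 (HW_7527_g, r = 0.82) and *CYP71A26* (HW_42162_g, r = 0.82). For *NCED4* HW_33543_g, with its sparse counts, the highest values were only 0.69, 0.67 and 0.67, for AT4G25150 (HW_11192_g), AT4G26550 (HW_17545_g) and AT5G24230 (HW_7994_g).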

How the data were processed

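RNA-seq was analysed in 32 leaf libraries of 8 groups of 4, grouped by treatment and time as the sample labels give them, with each library from a separate plant. The authors trimmed the reads, mapped them with STAR 2.5.2b to a draft genome annotated with GeneMark, and counted them per predicted gene with HTSeq 0.6.1; the table they deposited holds whole-number counts for each gene, not normalized. The counting mode and strandedness are not given in the sources used here. Gene positions came from the deposited annotation.

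Each comparison was fitted to its own 8 libraries (16 for an interaction of herbicide and time) over the whole table with TMM normalization, filterByExpr (minimum count 10) and the quasi-likelihood test of edgeR 4.0.16 in R 4.3.3, with Benjamini-Hochberg adjustment over all tested genes and a threshold of 0.05. Single members were also tested by an exact two-sided permutation of log2 CPM (prior count 2) over the 70 assignments of 4 and 4 libraries. Figures used matplotlib 3.10.9. The scripts were tested on simulated data.

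Alternatives were DESeq2 1.42.0, edgeR's exact test, DESeq2 size factors, the low-count filter dropped or replaced by a minimum of 10 counts in all libraries, 1 fit of all 32 libraries, a replicate block, each library left out in turn, a prior count of 0.5 and raw library totals. Named are the members, for each the 3 genes of highest Pearson r with it over the 32 libraries, and at most 3 called genes per pathway step with the largest change. Members and lists were chosen with earlier results of these data known. HW_21724_g was named after its values were seen.

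Replicate numbers pair no plants: every library came from a separate plant, and in 0 of 13 comparisons of 2 groups did all same-numbered libraries deviate together (r above 0.1). This check asks for all numbers at once and cannot exclude an effect shared by a single number. Between groups of 1 HAT the r of replicate 4 was 0.041 to 0.339, while that of the other numbers was of either sign. Its cause was not tested.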

Additional observations from a re-analysis of the deposited data

Results flagged for a closer look

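Among 40 sets of 4 libraries (5 members in 8 groups), 5 held a library far from the other 3 by Dixon's criterion. Its chance rate of about 1 of 20 sets holds for normally distributed values. It does not hold for CPM with counts of 0, so the 5 sets cannot be compared with it. Dicamba 1 HAT replicate 4 was the high library for *NCED4* HW_13601_g, with 782 CPM, for *NCED4* HW_33543_g, with 0.837 CPM, and for *CCD1*, with 301 CPM. The other sets were HW_33543_g at 0.702 CPM in 2,4-D 1 HAT replicate 4 and at 0.228 CPM in 2,4-D 6 HAT replicate 1. Each was the only library of its group with counts, so the criterion was met by construction. The *NCED5* level of dicamba 1 HAT replicate 4, 19.9 CPM, was close to that of replicate 1, 19.0 CPM.

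The difference from water changed between 1 and 6 HAT for *CCD1*, with interaction log2 values of 5.19 with 2,4-D, 4.29 with dicamba and 4.56 with halauxifen-methyl. These were 3 of 14 interactions tested over the members, and they share their water libraries.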

How the results depend on the processing

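The *CCD1* calls against water at 6 HAT, in water over time and in the interactions, the *NCED4* HW_13601_g call in water over time, and the *NCED5* calls against water after 2,4-D at both times and after dicamba at 1 HAT held in every alternative that tested them. Of 1117 alternative values for 69 tested pairs of member and comparison, 1060 kept direction and side of the threshold, 30 passed it newly, 27 no longer passed and 0 were called in the other direction. The number of members called moved as follows, and the cause was not tested unless named. At least 10 counts in every library removed *NCED5* from the tests against water, so 0 members were called after 2,4-D and dicamba at 1 HAT and 1 after 2,4-D at 6 HAT. DESeq2 called 2, 1, 2 and 4 members for 2,4-D at 1 HAT, halauxifen-methyl at 1 HAT, dicamba at 6 HAT and halauxifen-methyl at 6 HAT. In the same order edgeR's exact test called 2, 1, 2 and 3, and 1 fit of all 32 libraries 2, 1, 2 and 2. Over the whole table DESeq2 called 656 genes for 2,4-D at 1 HAT, where edgeR's quasi-likelihood test called 259. For halauxifen-methyl at 1 HAT these numbers were 81 and 25, and for dicamba at 6 HAT 1935 and 1383. The exact test and the fit of 32 libraries also called more genes there than the quasi-likelihood test. The added members in these comparisons thus came with more calls over all genes. No low-count filter gave 2, 1 and 2 members for dicamba at 1 HAT, halauxifen-methyl at 1 HAT and dicamba at 6 HAT. For 2,4-D against dicamba at 1 HAT, DESeq2, edgeR's exact test and no filter called 1 and the fit of 32 libraries 2. For 2,4-D against halauxifen-methyl at 1 HAT, DESeq2, the exact test and the fit of 32 libraries called 1. For that pair at 6 HAT the fit of 32 libraries called 0 and the replicate block 1 (*NCED5*, adjusted p = 0.0307). The replicate block changed no other count of members called. Leaving out 1 library gave 1 to 2 members for dicamba and for halauxifen-methyl at 6 HAT, 0 to 1 for 2,4-D against halauxifen-methyl at 1 HAT, 1 to 3 for that pair at 6 HAT, and 2 to 3 between the water groups. Levels per coding length moved by less than 1 SD with raw library totals, and the exact permutation results kept their side with a prior count of 0.5. edgeR's exact test gives no interaction and was not run there. In water the counts of *NCED5* and HW_33543_g were at most 19 and 8 per library, which limits the precision of their fold changes. Over all tested genes, the number called, with its range over all alternatives including each library left out, moved by more than 1.5 times for 2,4-D (259, 136 to 656), dicamba (343, 179 to 858) and halauxifen-methyl (25, 1 to 81) against water at 1 HAT. The lowest of these came without water 1 HAT replicate 2 for 2,4-D and dicamba and without water 1 HAT replicate 3 for halauxifen-methyl. The same held for 2,4-D against dicamba (30, 5 to 789), 2,4-D against halauxifen-methyl (69, 41 to 275) and dicamba against halauxifen-methyl (51, 31 to 169) at 1 HAT, for these pairs at 6 HAT (75, 31 to 262, then 1175, 587 to 1846, then 72, 23 to 376), and for the interactions of dicamba (820, 591 to 1260) and halauxifen-methyl (871, 610 to 1387) with time.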
